A study of Mus musculus with 7 samples.

Results

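The collagen genes were the 44 of 23420 genes of one expression table whose symbol reads Col, a number, a and a number. They were sorted by textbook class into 8 groups, namely fibrillar, hexagonal network, fibril-associated, microfibril type VI, multiplexin, transmembrane, basement membrane type IV, and anchoring fibril with other types. RNA of cardiac ventricle was measured by bulk sequencing in mice with myocarditis of the kind that immune checkpoint inhibitors (ICI) cause and in unaffected controls. The ICI-myocarditis group was 3 mice of genotype Ctla4+/-;Pdcd1-/- and the control group 4 mice of genotype Ctla4+/+;Pdcd1-/-. Every animal therefore lacked Pdcd1 according to its label, and the groups differed in 1 copy of Ctla4. All were untreated and 3 to 6 weeks old, with no age given per animal, and the tissue label reads whole heart where the protocol names ventricle. Gene loss stands in for the drugs in this model, and no animal received an inhibitor.

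Collagens are secreted proteins whose chains wind into a triple helix, and each gene encodes 1 chain. Fibrillar collagens, chiefly types I and III in the heart, form the cable-like fibres between muscle cells and are made mainly by fibroblasts. Type IV collagen forms the sheet-like network of the basement membranes around capillaries and cardiomyocytes, type VI forms beaded microfibrils near those membranes, and fibril-associated collagens sit on the surface of fibres.

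Recovered depth was 20931730 to 39037176 reads per library. Ctla4 was at 29.2 to 113.5 normalized counts in controls and 250.7 to 372.9 in ICI-myocarditis, and Pdcd1 at 2.50 to 244.2 and 1096 to 1481. The labels do not say which exons the Pdcd1 allele lacks, so its reads check no label. Control 2 stood apart from the other controls, with a summed level of 5 T cell markers of 1158 normalized counts against 96.3 to 144.2. In limma, fitted on the 15258 genes that reached 10 normalized counts in 3 or more libraries, 15.7% were called at an adjusted p under 0.05, 11.7% higher and 4% lower in ICI-myocarditis. P-values in limma set the difference between groups against the spread between these animals, estimated partly over all genes.

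Of the 44 collagen genes, 40 passed the filter on low values and 11 were called (27.5%), 8 higher and 3 lower in ICI-myocarditis. None of the 40 passed through the ICI-myocarditis libraries alone. The 8 that rose were Col1a1, Col1a2, Col3a1, Col5a2, Col8a1, Col8a2, Col12a1 and Col14a1, which encode fibre chains, network chains and chains that bind fibres. The 3 that fell were Col4a3, Col6a6 and Col13a1. The median log2 fold change over the 40 was 0.57, beside -0.02 over all genes tested, and 62.5% of collagen genes lay above 0 beside 48.1% of all genes. The groups did not overlap for 14 collagen genes (35%), beside 28.6% of all genes tested. Out of the 40 tested, 9 were apart and higher in ICI-myocarditis, beside 17.3% of all genes tested. Another 5 of the 40 were apart and lower, beside 11.3%. Without control 2, 12 collagen genes were called in place of 11, while the share of all genes called went from 15.7% to 22.1%.

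Promoter windows are shown for 1 gene of each behaviour with an entry in the RefSeq promoter table (mouse build GRCm38.p6), together with the gap between the start sites of Col4a4 and Col4a3, a pair that starts head to head. The first 3 are the 150 bases directly before the start of a gene that rose and encodes a fibre chain (Col3a1, chr1:45311388-45311537, plus strand), of a gene that rose and encodes a network chain (Col8a1, chr16:57754738-57754887, minus strand) and of a gene that fell (Col13a1, chr10:61979109-61979258, minus strand). The last is all 71 bases of the gap (chr1:82586850-82586920, minus strand). None overlaps an annotated exon. Each is written 5′ to 3′ on the strand given, and capitals mark TATAAA, or GGGCGG on either strand.
Col3a1: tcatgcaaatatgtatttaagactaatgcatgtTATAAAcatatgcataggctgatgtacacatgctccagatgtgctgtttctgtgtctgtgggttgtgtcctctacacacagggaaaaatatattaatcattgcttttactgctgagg
Col8a1: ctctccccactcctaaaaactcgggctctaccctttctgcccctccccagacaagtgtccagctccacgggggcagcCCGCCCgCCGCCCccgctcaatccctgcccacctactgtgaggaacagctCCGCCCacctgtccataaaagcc
Col13a1: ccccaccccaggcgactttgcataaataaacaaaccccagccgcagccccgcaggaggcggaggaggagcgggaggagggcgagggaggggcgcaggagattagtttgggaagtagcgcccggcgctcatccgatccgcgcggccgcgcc
Col4a4-Col4a3 gap: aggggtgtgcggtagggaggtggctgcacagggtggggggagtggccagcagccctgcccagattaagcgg
The Col3a1 window held 1 TATAAA and was 37.3% G and C. The Col8a1 window held 3 copies of GGGCGG, all read on the opposite strand, 2 of them next to each other with 1 base between, and was 64.7% G and C. The Col13a1 window (68.7% G and C) and the gap (69.0%) held neither. Farther from its start, within the 250 bases searched below on both strands, Col13a1 did hold 1 TATAAA.

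Promoters of 35 of the 44 collagen genes were in the table, in 38 windows, and the 250 bases before each start were searched on both strands for 5 motifs, with overlapping matches allowed. GGGCGG, the GC box, was in 22 of 38 windows (57.9%) beside 32.7% of all 32851 promoters in the table. CCAAT was in 34.2% beside 33.8%, and TATAAA in 13.2% beside 12.4%. TTCNNNGAA, the pattern bound by STAT factors, was in 2 windows (5.26%) beside 7.02%, and TGANTCA, the AP-1 pattern, in 1 (2.63%) beside 6.75%. These are counts of letters, and they were not compared by a test. Col1a1, Col2a1, Col4a3, Col5a2, Col9a3, Col12a1, Col14a1, Col22a1 and Col26a1 were unmatched.

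Fibrillar collagens included 4 of the 8 genes that rose. Of 11 members 10 were tested, 4 were higher (40%, beside 11.7% of all genes tested), none was lower, and the median log2 fold change was 0.99. Col1a1 encodes the major chain of type I collagen, the most abundant fibre protein of the heart, and lies on chromosome 11 (94936224 to 94953042, plus strand, as all positions here in GRCm38). It was at 19786, 10566, 8361 and 7155 normalized counts in controls 1 to 4 and 23073, 50515 and 49627 in ICI-myocarditis 1 to 3. The groups did not overlap, and control 1 lay closest to ICI-myocarditis 1 (log2 fold change 1.87 with SE 0.426, adjusted p = 0.0185 in limma). Col1a2, the partner chain of Col1a1 on chromosome 6 (4504814 to 4541544, plus strand), was at 15909, 12143, 10006 and 7579 normalized counts in controls 1 to 4 and 21993, 38823 and 45933 in ICI-myocarditis 1 to 3. ICI-myocarditis 1 was again the lowest of its group, and the groups were apart (log2 fold change 1.63 with SE 0.356, adjusted p = 0.0158 in limma).

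Col3a1, whose chain forms the finer type III fibres, was at 32751, 25796, 27069 and 18741 normalized counts in controls 1 to 4 and 68451, 86499 and 54124 in ICI-myocarditis 1 to 3. Every ICI-myocarditis library exceeded every control, and here ICI-myocarditis 2 was highest and 3 lowest of its group (log2 fold change 1.42 with SE 0.314, adjusted p = 0.0161 in limma). Its exons overlap those of Gm47302 on the same strand by 141 bases, so some reads could belong to either. Its neighbour Col5a2 lies tail to tail with it on chromosome 1, with 24614 bases between their ends. Col5a2 encodes a chain of type V collagen, which nucleates fibres, and was at 3991, 3443, 3172 and 2316 normalized counts in controls 1 to 4 and 6772, 7918 and 11139 in ICI-myocarditis 1 to 3. The groups were apart (log2 fold change 1.41 with SE 0.264, adjusted p = 0.00871 in limma).

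The other type V chains were not called. Col5a1 was at 9429, 5651, 4540.2 and 3897 normalized counts in controls 1 to 4 and 6767, 11147 and 11395 in ICI-myocarditis 1 to 3, with the ICI-myocarditis libraries reaching into the control range (0.78 in log2 fold change, adjusted p = 0.164 in limma). Col5a3 was at 3536, 2610.2, 1692 and 1391 normalized counts in controls 1 to 4 and 1254, 2135 and 1195 in ICI-myocarditis 1 to 3 (-0.55 in log2 fold change, adjusted p = 0.330 in limma). The 3 chains of 1 collagen type thus gave estimates on both sides of 0, of which only that of Col5a2 passed the test. Col27a1 (log2 fold change 1.02), Col11a1 (0.96), Col24a1 (0.29) and Col11a2 (-0.21) were low, at most 495 normalized counts in any library, and overlapped between groups. Col2a1, the cartilage fibre chain, was at 0 to 3.06 normalized counts and was not tested.

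The calls of the type I and III genes depended on single animals. Col1a1 and Col1a2 were no longer called without ICI-myocarditis 2, ICI-myocarditis 3 or control 3, and Col3a1 without ICI-myocarditis 2 or control 3, at limma adjusted p of up to 0.0788. Their log2 fold changes then stayed above 1, the lowest being 1.25 for Col3a1, and Col5a2 stayed called without any 1 library.

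**Figure D1:**
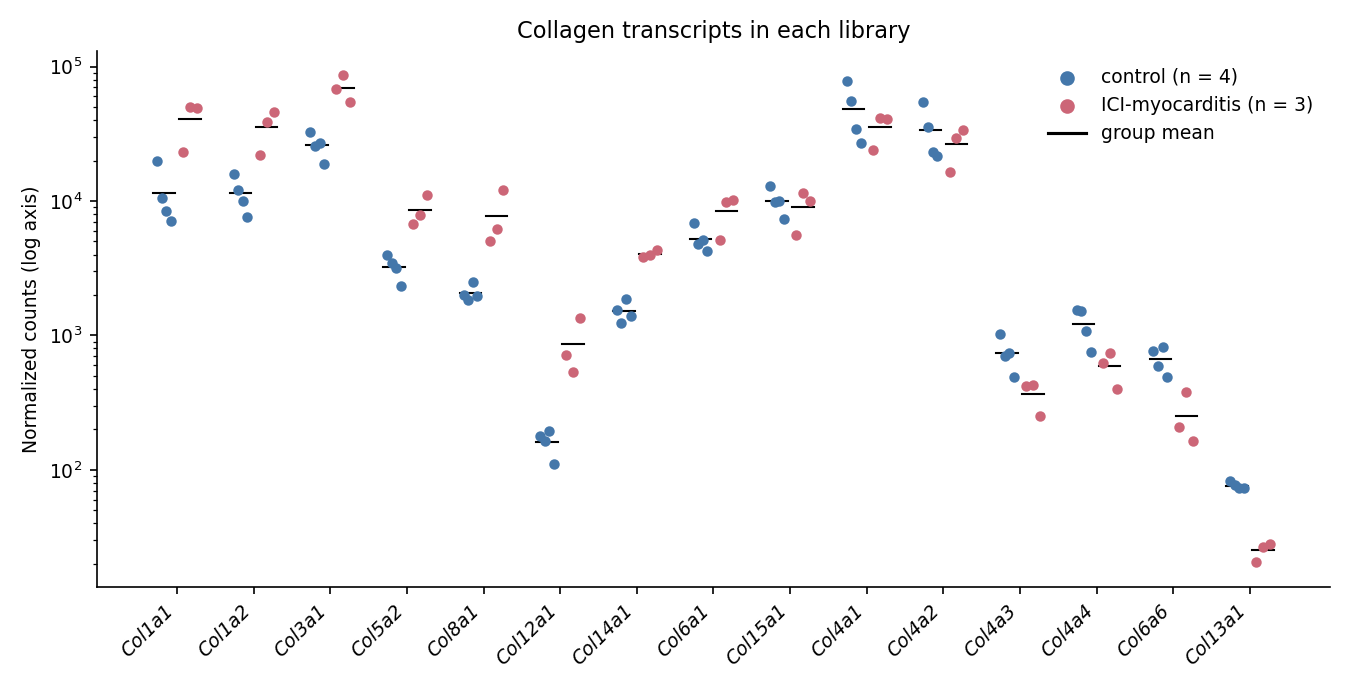
Normalized counts on a log axis of 15 collagen genes in each library, with 1 point per library (blue, 4 controls; red, 3 ICI-myocarditis) and a line at each group mean. The fibre genes, Col8a1, Col12a1 and Col14a1 are apart with ICI-myocarditis above, Col4a3, Col4a4, Col6a6 and Col13a1 are apart with ICI-myocarditis below, and Col4a1, Col4a2, Col6a1 and Col15a1 overlap.

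Markers of activated fibroblasts were divided. Of 6 markers 4 rose, namely Postn, Tnc, Cthrc1 and Fn1, where 11.7% of all genes tested rose. Fap, a surface protease of activated fibroblasts, was at 174, 268, 341 and 265 normalized counts in controls 1 to 4 and 159.6, 144 and 115 in ICI-myocarditis 1 to 3, with every ICI-myocarditis library below every control, and was not called (-0.88 in log2 fold change, adjusted p = 0.0621 in limma). Acta2, the smooth muscle actin also used as a mark of myofibroblasts, overlapped between groups and was not called (-0.64 in log2 fold change, adjusted p = 0.338 in limma). The summed level over the 6 was 11840 to 20350 normalized counts in controls and 33069 to 73732 in ICI-myocarditis. Of 8 markers of fibroblasts in general only Mfap5 was called, higher, and the sums overlapped, at 54304 to 97528 against 53889 to 75639. Estimates were above 0 for 7 of the 8. The 1 below 0 was Gsn, the most abundant of them and the largest part of these sums (-0.67 in log2 fold change, adjusted p = 0.165 in limma). Every ICI-myocarditis library was below every control for Gsn (28384 to 36449 against 37450 to 60515 normalized counts). For 2 of the 8, every ICI-myocarditis library was above every control. In bulk RNA, more cells of a type and more RNA per cell cannot be told apart, and the part of these cells in the collagen results was not tested.

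Fibril-associated collagens held the 2 lowest p-values of the family, those of Col14a1 and Col12a1. Of 9 members 7 were tested, 2 were higher (28.6%, beside 11.7% of all genes tested) and none lower, and the median log2 fold change was 1.11. Col14a1, a chain that coats type I fibres, is on chromosome 15 (55307750 to 55520803, plus strand) and was at 1557, 1247, 1877 and 1403 normalized counts in controls 1 to 4 and 3846, 3950.4 and 4325 in ICI-myocarditis 1 to 3. The 3 ICI-myocarditis libraries lay close together and above all controls (log2 fold change 1.42 with SE 0.195, adjusted p = 0.00365 in limma). Col12a1, a related chain of tissues under tension, is on chromosome 9 (79598991 to 79718831, minus strand) and was at 178, 163, 195 and 111 normalized counts in controls 1 to 4 and 716, 536 and 1344 in ICI-myocarditis 1 to 3. The groups were apart and ICI-myocarditis 3 was highest (log2 fold change 2.33 with SE 0.336, adjusted p = 0.00400 in limma). Both genes stayed called without any 1 library.

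Col16a1 was at 641, 575, 519 and 318 normalized counts in controls 1 to 4 and 732, 993 and 1549.6 in ICI-myocarditis 1 to 3, apart between groups, and missed the threshold (1.07 in log2 fold change, adjusted p = 0.0505 in limma). Col22a1, whose chain sits at junctions of muscle and tendon, was apart in the other direction, at 29.6 to 41.3 normalized counts in controls and 9.17 to 21.5 in ICI-myocarditis (-1.16 in log2 fold change, adjusted p = 0.0880 in limma). Col9a2, Col9a3 and Col20a1, with log2 fold changes of 1.11, 1.25 and -0.16, overlapped between groups and were not called. The Col9a3 estimate was 0.53 without control 4 and 1.84 without control 2. Col9a1, at 0 to 4.47 normalized counts, and Col19a1, at 0 to 14.5, were not tested.

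Hexagonal network collagens had the highest class median, a log2 fold change of 1.81 over 3 genes, of which 2 rose, beside 11.7% of all genes tested. Col8a1 encodes a short-chain collagen of vessel walls and remodelling tissue and lies on chromosome 16 (57624258 to 57754737, minus strand). It was at 1998, 1842, 2505 and 1968 normalized counts in controls 1 to 4 and 5083, 6179 and 12063 in ICI-myocarditis 1 to 3. The lowest ICI-myocarditis library was above the highest control, and ICI-myocarditis 3 was highest (log2 fold change 1.81 with SE 0.299, adjusted p = 0.00580 in limma). Its partner chain Col8a2 was at 37.3, 14.8, 32.4 and 20.02 normalized counts in controls 1 to 4 and 57.3, 156 and 297 in ICI-myocarditis 1 to 3, in the same order within ICI-myocarditis (log2 fold change 2.45 with SE 0.567, adjusted p = 0.0198 in limma). The Col8a2 estimate ranged from 1.91 to 3.08 when 1 library was left out, 3.08 without ICI-myocarditis 1 and 1.91 without ICI-myocarditis 3. It was no longer called without ICI-myocarditis 2 (adjusted p = 0.0688 in limma) or 3 (adjusted p = 0.0872 in limma). Col10a1, the chain of growth-plate cartilage, overlapped between groups (1.01 in log2 fold change, adjusted p = 0.282 in limma).

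Type VI collagen split by gene. Col6a1, Col6a2 and Col6a3 encode the chains of the usual type VI microfibril, and none of them was called. Col6a1 was at 6869, 4763, 5158 and 4234 normalized counts in controls 1 to 4 and 5107, 9912 and 10160.1 in ICI-myocarditis 1 to 3 (0.63 in log2 fold change, adjusted p = 0.198 in limma). Col6a3 was at 6908, 4695, 7351 and 5685 normalized counts in controls 1 to 4 and 8088, 10275 and 6619 in ICI-myocarditis 1 to 3 (0.43 in log2 fold change, adjusted p = 0.294 in limma), and Col6a2 had a log2 fold change of 0.61 (adjusted p = 0.170 in limma). Each overlapped between groups.

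Col6a6, an alternative chain that can take the place of Col6a3, fell. It was at 770.3, 596, 825 and 488 normalized counts in controls 1 to 4 and 207, 379.7 and 164 in ICI-myocarditis 1 to 3, with every ICI-myocarditis library below every control (log2 fold change -1.48 with SE 0.316, adjusted p = 0.0142 in limma), and its exons overlap those of Gm38314 on the opposite strand by 63 bases. It was not called without ICI-myocarditis 3 or control 3, at limma adjusted p of up to 0.0596. Its neighbour Col6a5, another alternative chain on the same strand of chromosome 9 with 27917 bases between them, was at 8.07, 8.63, 11.2 and 18.8 normalized counts in controls 1 to 4 and 6.14, 329 and 95.5 in ICI-myocarditis 1 to 3. ICI-myocarditis 2 and 3 exceeded all controls and ICI-myocarditis 1 was the lowest library of all (log2 fold change 2.34 with SE 1.08, adjusted p = 0.182 in limma). The estimate was 1.12 without ICI-myocarditis 2 and 3.89 without ICI-myocarditis 1, and in the latter fit alone of the 7 omissions it was called (adjusted p = 0.0112 in limma). On recovered reads Col6a5 had an adjusted p of 0.0392 in edgeR and 0.000507 in DESeq2. Col6a4, at 0 to 2.17 normalized counts, was not tested.

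**Figure D2:**
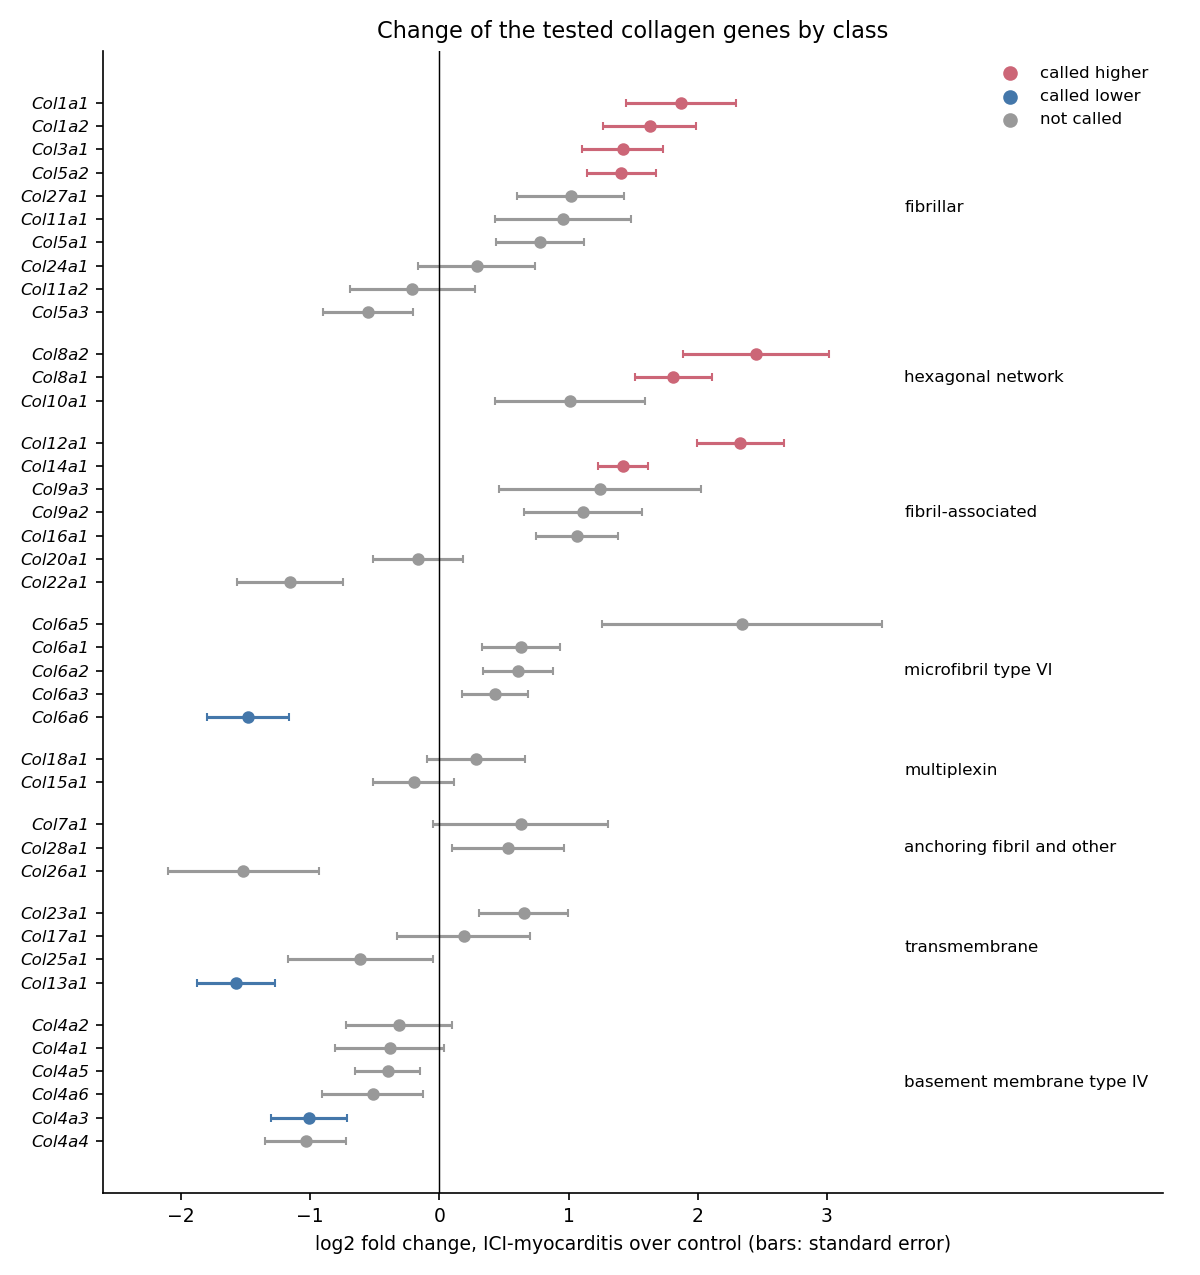
Log2 fold change, ICI-myocarditis over control, with its standard error as a bar, of the 40 tested collagen genes grouped by class (red, called higher; blue, called lower; grey, not called). All 6 type IV genes have estimates below 0, whereas fibrillar, hexagonal network and fibril-associated genes lie mostly above 0.

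Type IV collagen had estimates below 0 for all 6 genes, with a median log2 fold change of -0.46, and 1 of the 6 was called. Col4a1 and Col4a2 encode the chains of nearly all basement membranes and lie head to head on chromosome 8, with annotated ends that overlap by 22 bases. Col4a1 was at 78333, 55170.2, 34329 and 26843 normalized counts in controls 1 to 4 and 23872, 41305 and 40726 in ICI-myocarditis 1 to 3. ICI-myocarditis 2 and 3 lay inside the control range and ICI-myocarditis 1 below it (log2 fold change -0.38 with SE 0.423, adjusted p = 0.597 in limma). Col4a2 was at 54718, 35519, 23209 and 21632 normalized counts in controls 1 to 4 and 16310.1, 29519 and 33679.5 in ICI-myocarditis 1 to 3 and overlapped likewise (log2 fold change -0.31 with SE 0.411, adjusted p = 0.666 in limma). Its estimate was 0.0046 without ICI-myocarditis 1, the only library whose omission turned its sign.

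Col4a3 and Col4a4 encode chains of a more restricted type IV network, best known from the kidney filter, and share the gap printed above. Col4a3, on chromosome 1 (82586921 to 82722059, plus strand), was at 1022, 706, 738 and 490.5 normalized counts in controls 1 to 4 and 418, 427 and 251 in ICI-myocarditis 1 to 3 and fell (log2 fold change -1.01 with SE 0.292, adjusted p = 0.0467 in limma). Its exons overlap an antisense transcript, C430014B12Rik, by 274 bases, and whether strand was used in counting is not given in the sources used here. The call was held under 7 of 18 alternatives and lost when any 1 of 6 libraries was left out, all but control 4, with limma adjusted p of up to 0.187. Col4a4 was at 1544, 1523, 1076 and 748 normalized counts in controls 1 to 4 and 628, 746 and 400.4 in ICI-myocarditis 1 to 3, also with the groups apart, and missed the threshold (-1.03 in log2 fold change, adjusted p = 0.0536 in limma). The gap between the groups was narrow, from control 4 to ICI-myocarditis 2. In both genes control 1 was the highest control and control 4 the lowest.

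Col4a5 and Col4a6 lie head to head on chromosome X, with 1308 bases between their starts. Col4a5 was at 4044 to 5515 normalized counts in controls and 2689 to 4889 in ICI-myocarditis (-0.40 in log2 fold change, adjusted p = 0.328 in limma). Col4a6 was at 47.5 to 122 and 45.02 to 71.8 (-0.52 in log2 fold change, adjusted p = 0.416 in limma).

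Markers of vessel cells, which build type IV membranes, were mostly lower beside these estimates. Among all genes tested, 4% fell and 48.1% had estimates above 0. Of 8 endothelial markers 4 fell and all 8 estimates were below 0, with sums of 31639 to 81190 normalized counts in controls, the highest in control 2, and 23290 to 30024 in ICI-myocarditis. Of 8 markers of pericytes and smooth muscle 4 fell, with sums of 55221 to 73055 against 26362 to 32559. Among these 8, 7 estimates were below 0 and that of Cspg4 was above (0.10 in log2 fold change). Their part in the type IV values was not tested.

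Of the 9 genes in the remaining classes 1 was called, Col13a1, where 15.7% of all genes tested were called. Col15a1, a multiplexin of vessel basement membranes, was at 12912, 9891, 10081 and 7382 normalized counts in controls 1 to 4 and 5565, 11401 and 10029 in ICI-myocarditis 1 to 3 and overlapped between groups (log2 fold change -0.20 with SE 0.315, adjusted p = 0.725 in limma). Col18a1, the precursor of endostatin, was at 462 to 1417 normalized counts in controls and 709 to 1279 in ICI-myocarditis and was not called (0.28 in log2 fold change, adjusted p = 0.671 in limma). Among the transmembrane collagens Col13a1, a chain found at neuromuscular junctions, on chromosome 10 (61838236 to 61979108, minus strand), was at 82.7, 76.5, 72.6 and 73.8 normalized counts in controls 1 to 4 and 20.5, 26.8 and 28.3 in ICI-myocarditis 1 to 3. The controls lay within a narrow range and every ICI-myocarditis library was below it (log2 fold change -1.57 with SE 0.299, adjusted p = 0.00896 in limma), and the gene stayed called without any 1 library.

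Col23a1, with the highest mean normalized count of the transmembrane class, was at 79.7, 111, 113 and 85.1 normalized counts in controls 1 to 4 and 131, 105 and 253 in ICI-myocarditis 1 to 3 (log2 fold change 0.65 with SE 0.343, adjusted p = 0.239 in limma). ICI-myocarditis 2 lay inside the control range. Col17a1, a chain of skin hemidesmosomes, and Col25a1 overlapped between groups, with log2 fold changes of 0.19 and -0.61, and were not called. In the last class Col28a1, with the highest mean there, was at 98.8, 121, 63.6 and 53.8 normalized counts in controls 1 to 4 and 73.7, 101 and 209 in ICI-myocarditis 1 to 3 (0.53 in log2 fold change, adjusted p = 0.457 in limma). Col7a1, the anchoring fibril of skin, and Col26a1 had log2 fold changes of 0.63 and -1.52 and were not called. Both estimates depended on single libraries. Col7a1 was at 0.043 in log2 fold change without control 4 and 1.04 without control 2. Col26a1 was at -1.07 without ICI-myocarditis 3 and -2.16 without ICI-myocarditis 1, where it was called (adjusted p = 0.0410 in limma), as it was with limma-voom (adjusted p = 0.0171).

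The groups were apart in the make-up of their collagen transcripts and overlapped in the total. All collagen reads were 0.814, 0.731, 0.521 and 0.331% of the library in controls 1 to 4 and 0.740, 1.17 and 1.16% in ICI-myocarditis 1 to 3, with ICI-myocarditis 1 inside the control range. Fibrillar genes took 32.1, 32.1, 35.5 and 33.3% of collagen reads in controls 1 to 4 and 60.8, 59.9 and 56.1% in ICI-myocarditis 1 to 3, or 33.3 ± 1.599% (SD, n = 4) of collagen reads in controls and 58.9 ± 2.49% (SD, n = 3) in ICI-myocarditis. Type IV genes took 52.4, 51.4, 41.8 and 44.7% in controls 1 to 4 and 21.8, 23.0 and 25.1% in ICI-myocarditis 1 to 3, or 47.6 ± 5.16% (SD, n = 4) of collagen reads in controls and 23.3 ± 1.66% (SD, n = 3) in ICI-myocarditis. The groups did not overlap in either share. Shares of a whole are tied together, so a larger fibrillar share makes those of other classes smaller. In normalized counts Col4a1, Col4a2 and the multiplexin Col15a1 overlapped between groups. These shares are described without a test, and the widest Wilson 95% interval of any was 0.620 percentage points, which covers counting error only.

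The other classes were smaller. Type VI took 10.1 ± 2.29% (SD, n = 4) of collagen reads in controls and 9.06 ± 0.523% (SD, n = 3) in ICI-myocarditis. Multiplexins took 6.11 ± 0.685% (SD, n = 4) of collagen reads in controls and 3.47 ± 0.449% (SD, n = 3) in ICI-myocarditis. Hexagonal network genes took 1.31 ± 0.446% (SD, n = 4) of collagen reads in controls and 2.84 ± 1.09% (SD, n = 3) in ICI-myocarditis, and fibril-associated genes 1.38 ± 0.368% (SD, n = 4) of collagen reads in controls and 2.23 ± 0.461% (SD, n = 3) in ICI-myocarditis. Per kilobase of exon, the fibrillar share was 35.4% of collagen in controls and 60.9% in ICI-myocarditis, and the type IV share was 44.9% and 21.1%.

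The most abundant collagen gene was another in each group. Per kilobase of exon, Col4a1 was the highest collagen gene in each of the 4 controls, with a mean of 7357 normalized counts per kilobase, ahead of Col4a2 (5236), Col3a1 (4689), Col1a2 (2133) and Col1a1 (1934). In ICI-myocarditis Col3a1 was the highest in each of the 3 libraries, with a mean of 12525 normalized counts per kilobase, followed by Col1a1 (6926), Col1a2 (6654), Col4a1 (5337) and Col4a2 (4109). Col1a1 and Col1a2 are neighbours in this order in both groups, and their ratio did not separate the groups.

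**Figure D3:**
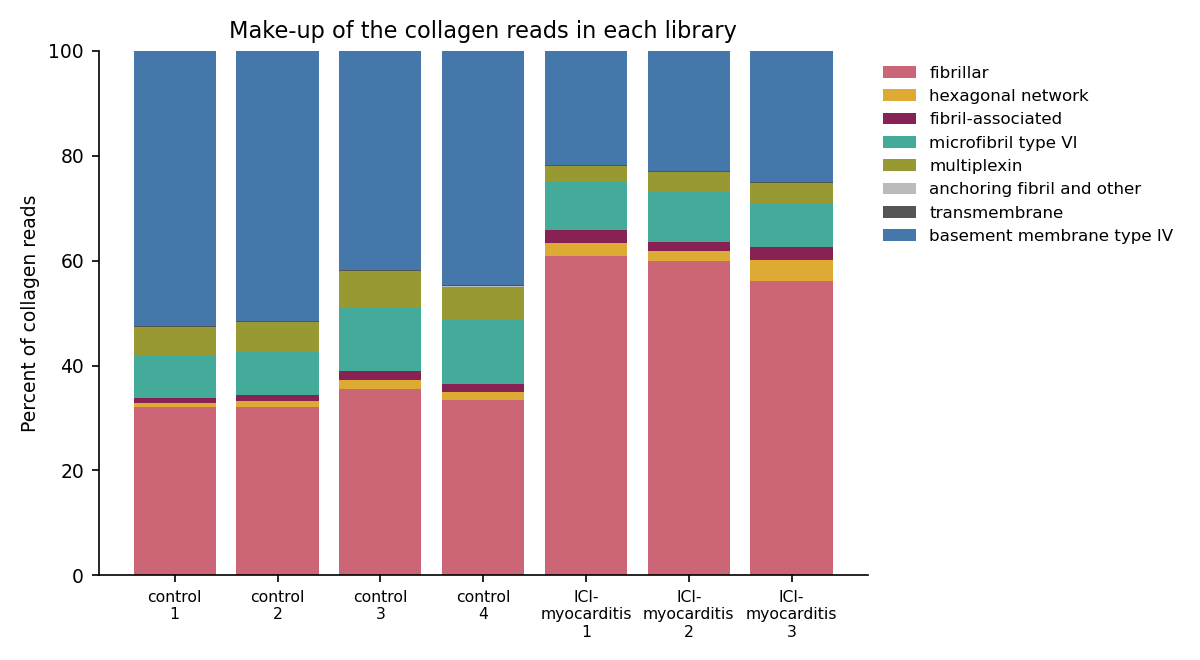
Percent of collagen reads in each of the 8 classes, as 1 stacked bar per library, with 4 controls on the left and 3 ICI-myocarditis libraries on the right. Fibrillar genes take 32.1 to 35.5% in controls and 56.1 to 60.8% in ICI-myocarditis, and type IV genes 41.8 to 52.4% and 21.8 to 25.1%.

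Ratios of 2 genes within a library do not depend on its scaling, and 6 of them were tested by exact permutation, two-sided, over all 35 ways to split the 7 libraries into 4 and 3, where the smallest possible p is 0.0286. The ratio of Col4a1 to Col1a1 was 3.96, 5.22, 4.11 and 3.75 in controls 1 to 4 and 1.03, 0.818 and 0.821 in ICI-myocarditis 1 to 3. Every ICI-myocarditis library was below every control, with a log2 difference of group means of -2.25 (exact permutation p = 0.0286, 0.0857 after Benjamini-Hochberg adjustment over the 6). The ratio of Col12a1 to Col14a1 was 0.115, 0.131, 0.104 and 0.0794 in controls 1 to 4 and 0.186, 0.136 and 0.311 in ICI-myocarditis 1 to 3. It was higher in all 3 ICI-myocarditis libraries, by 0.91 on the log2 scale (exact permutation p = 0.0286, adjusted 0.0857). Neither passed the adjusted threshold, which the design could reach only if at least 4 of the 6 ratios gave the smallest p.

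Chains that assemble together kept overlapping ratios. Col1a1 over Col1a2, the chains of type I collagen, was 1.24, 0.870, 0.836 and 0.944 in controls 1 to 4 and 1.05, 1.30 and 1.08 in ICI-myocarditis 1 to 3 (log2 difference 0.24, exact permutation p = 0.2, adjusted 0.4). Col4a1 over Col4a2 was 1.43, 1.55, 1.48 and 1.24 in controls 1 to 4 and 1.46, 1.40 and 1.21 in ICI-myocarditis 1 to 3 (log2 difference -0.07, exact permutation p = 0.457, adjusted 0.549). Col6a3 over Col6a1 was 1.01, 0.986, 1.43 and 1.34 in controls 1 to 4 and 1.58, 1.04 and 0.652 in ICI-myocarditis 1 to 3 (log2 difference -0.20, exact permutation p = 0.657, adjusted 0.657). Col3a1 over Col1a1, the balance of fine and coarse fibre chains, was 1.66, 2.44, 3.24 and 2.62 in controls 1 to 4 and 2.97, 1.71 and 1.09 in ICI-myocarditis 1 to 3 (log2 difference -0.45, exact permutation p = 0.343, adjusted 0.514), with ICI-myocarditis 3 lowest of all 7 libraries.

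**Figure D4:**
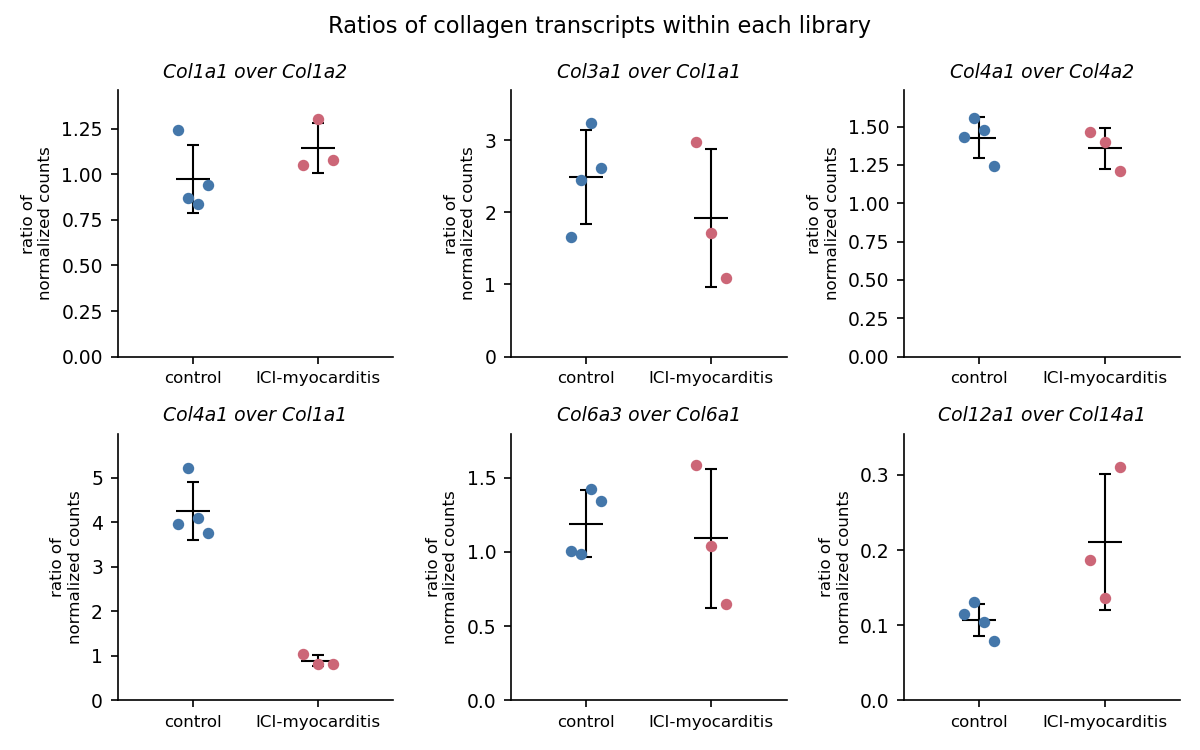
Ratio of normalized counts of 6 pairs of collagen genes, with 1 point per library (4 controls in blue, 3 ICI-myocarditis in red), a line at the group mean and bars of 1 SD. Col4a1 over Col1a1 is 3.75 to 5.22 in controls and 0.818 to 1.03 in ICI-myocarditis, Col12a1 over Col14a1 is also apart, and the other 4 pairs overlap.

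The order of libraries within a group differed from gene to gene. Control 1 was the highest control for 21 of the 40 tested genes (52.5%, beside 18.9% of all genes tested), and control 4 was the lowest for 27 (67.5%, beside 30.8%). In ICI-myocarditis, library 1 was the lowest for 22 (55.0%, beside 39.6%). Library 3 was the highest for 21 (52.5%, beside 41.0%) and the lowest for 12 (30%, beside 39.1%). Genes of 1 library share its tissue sample, so these counts are not independent.

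Genes that make and mature collagen numbered 29 tested, of which 11 were called, 9 higher and 2 lower, with a median log2 fold change of 0.35. Of all genes tested, 15.7% were called, 11.7% higher and 4% lower. Lox, the oxidase that starts cross-links between collagen chains, was at 396, 375, 408 and 293 normalized counts in controls 1 to 4 and 1358, 1657 and 5409.8 in ICI-myocarditis 1 to 3. The groups were apart (log2 fold change 2.65 with SE 0.424, adjusted p = 0.00514 in limma), and Lox stayed called at 2.04 without ICI-myocarditis 3, the highest library. Loxl3, a related oxidase, was at 277, 391, 250.1 and 186 normalized counts in controls 1 to 4 and 689.6, 968 and 2089 in ICI-myocarditis 1 to 3 (log2 fold change 2.06 with SE 0.384, adjusted p = 0.00866 in limma). P4ha2, a prolyl hydroxylase that stabilises the triple helix, fell, at 1563, 1554, 1464 and 1613 normalized counts in controls 1 to 4 and 879.9, 763 and 565 in ICI-myocarditis 1 to 3 (log2 fold change -1.10 with SE 0.195, adjusted p = 0.00719 in limma).

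Among collagen receptors 2 of 9 tested genes rose and none fell, beside 11.7% and 4% of all genes tested. Their median log2 fold change was 0.10. Lair1, an inhibitory collagen receptor of leukocytes, was at 82.7, 537, 262 and 145 normalized counts in controls 1 to 4 and 2161, 1983 and 3452 in ICI-myocarditis 1 to 3 (log2 fold change 3.59 with SE 0.548, adjusted p = 0.00446 in limma). Mrc2, which takes up collagen fragments, was at 2305, 1852, 1798 and 1590.2 normalized counts in controls 1 to 4 and 3053, 4252 and 6881 in ICI-myocarditis 1 to 3 (log2 fold change 1.26 with SE 0.281, adjusted p = 0.0172 in limma). Mrc2 was no longer called without ICI-myocarditis 2, ICI-myocarditis 3 or control 3, at an adjusted p of up to 0.0576 in limma. Lair1 moved with leukocyte markers, of which 5 of 6 macrophage genes rose (sums of 8117 to 9344 normalized counts in controls and 21276 to 39668 in ICI-myocarditis) and all 5 T cell genes tested (96.3 to 1158 and 5464 to 8319). Their part in its change was not tested.

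Of the collagen-degrading enzymes 1 of 5 tested rose, where 11.7% of all genes tested did. It was Mmp14, a membrane-bound collagenase, at 962, 779.6, 559 and 442 normalized counts in controls 1 to 4 and 1301, 2327 and 5045 in ICI-myocarditis 1 to 3 (log2 fold change 1.92 with SE 0.438, adjusted p = 0.0188 in limma). The groups were apart, and the call was lost without ICI-myocarditis 2, ICI-myocarditis 3 or control 3, at an adjusted p of up to 0.0617 in limma. Mmp1a was at 0 in every library. The partners of type IV collagen in basement membranes, laminins, nidogens, perlecan, agrin and peroxidasin, gave no call in limma among 15 tested, with 4 at an unadjusted p under 0.05, 12 estimates below 0 and a median log2 fold change of -0.48. DESeq2 called 3 of them and limma-voom with quality weights 4, beside 22.6% and 26.5% of all genes.

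Further marker lists were read for other cells. None of 6 cardiomyocyte markers was called, with all 6 estimates below 0, 2 at an unadjusted p under 0.05, and sums of 1114314 to 2119839 normalized counts in controls and 678614 to 1206685 in ICI-myocarditis. Of 5 Schwann cell markers tested 2 fell (559.3 to 863.2 and 281.9 to 385.1), and none of 5 mesothelial and epicardial markers was called in limma or at an unadjusted p under 0.05 (399.1 to 1363 and 418.9 to 1166). One of 5 cartilage and valve markers rose (251.5 to 522.6 and 414.4 to 1205), and the 5 fat markers were too low to test (8.07 to 166.4 and 4.58 to 7.97). Of 3 skeletal muscle markers tested, Tnnt3 rose (2.18 in log2 fold change, adjusted p = 0.0449 in limma). Ckm fell (-1.68 in log2 fold change, adjusted p = 0.0374 in limma). The list sums (21938 to 64422 and 17485 to 22933) were nearly all Ckm and Acta1, and Myh1, Myh2 and Myh4 were too low to test. Of all genes tested, 11.7% rose and 4% fell.

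In the authors' deposited table, 15 collagen genes had an adjusted p under 0.05, 10 higher and 5 lower, where 20.2% of all its genes with an adjusted p did. The 4 of these that limma did not call were Col4a4, Col6a5, Col16a1 and Col22a1. Of the 11 calls in limma, those of Col5a2, Col8a1, Col12a1, Col13a1 and Col14a1 held under all 18 alternatives.

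The number of collagen genes called was 6 to 18 over the alternatives, given here with the percentage of all genes called under the same alternative in parentheses. It was 11 (15.5%) and 12 (16.3%) with a pseudocount of 0.5 and of 5, 10 (12.2%) with no filter and 11 (15.9%) with a minimum of 50 normalized counts. Scaling by library size alone gave 10 (13%), TMM factors 10 (15.3%), and limma without trend and robust settings 11 (14.7%). edgeR gave 11 (14%), DESeq2 14 (22.6%), and limma-voom with quality weights 18 (26.5%). Leaving out ICI-myocarditis 1, 2 or 3 gave 13 (10.7%), 6 (9.27%) and 6 (6.55%), and leaving out control 1, 2, 3 or 4 gave 10 (9.93%), 12 (22.1%), 6 (8.57%) and 12 (13.8%).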

How the data were processed

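Total RNA of flash-frozen ventricle from 7 mice (4 control, 3 ICI-myocarditis) was sequenced paired-end from stranded libraries, per the labels' protocols. Groups and replicate numbers come from the sample titles and genotypes. The submitters' processing notes name STAR 2.7.3 and GRCm38 (mm10). The counting program, its annotation and its use of strand are not given in the sources used here. The deposited per-library signal holds read counts that the authors scaled by a single factor for each library, judging from the values. Per the file headers, further columns hold a p-value, raw and adjusted, a test statistic (given as a score) and the log2 fold change and standard error of the authors' own comparison. No column of other samples was present. Whole reads were recovered by dividing each column by its step (100% of values within 0.05 of a whole number). For control 1 the step was 1.01, which makes the recovery a weaker sign there.

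Genes that reached 10 normalized counts in 3 or more libraries were tested in limma 3.58.1 under R 4.3.3, with trend and robust settings, on the log2 of the normalized count plus 1, without covariates, and with Benjamini-Hochberg adjustment over all genes at a threshold of 0.05. Fold changes are on that scale, where the added 1 makes those of low genes smaller. They can still exceed the estimates of count models, as for Col10a1, at 1.01 in limma and 0.71 in DESeq2. edgeR 4.0.16 and DESeq2 1.42.0 on recovered reads, limma-voom, other pseudocounts, filters and scalings, the replicate block and leaving out each library were alternatives. The fits were tested on simulated data. Ratios were compared by exact permutation, and shares were given Wilson 95% intervals. Exon lengths, positions and overlaps are from GENCODE M21, promoter windows from RefSeq. The 27 rows named as dates, with 0.143% of reads, were kept. The list genes Colgalt1, Colgalt2 and Adgre1 were read under their older symbols Glt25d1, Glt25d2 and Emr1.

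The members, classes and lists were chosen with earlier results of these data known. Values in every library are given for called members with a mean of at least 500 normalized counts, the most abundant member of each class and the members of the ratios. For other members, those values were added after they had been seen. From each pathway list up to 3 called genes, those with the lowest p-value, are named. Marker lists are given by counts and sums, and the single markers named were picked after their values had been seen. Counting error is small at this depth, and the spread between animals limits all but the low genes.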

Additional observations from a re-analysis of the deposited data

How the results depend on the processing

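Across 18 alternatives, 5 of the 11 collagen calls held in all. The number of collagen genes called was 18 with limma-voom and 6 to 13 when 1 library was left out. Those higher numbered 4 to 10 when 1 library was left out. Those lower numbered 6 with limma-voom and 1 to 4 when 1 library was left out. Over all genes 4038 (26.5%) were called with limma-voom and 986 to 3340 (6.55 to 22.1%) when 1 library was left out. Maturation genes called numbered 3 to 10 when 1 library was left out. Receptors called numbered 4 with limma-voom and 1 to 3 when 1 library was left out. Basement membrane partners called numbered 3 with DESeq2, 4 with limma-voom and 0 to 1 when 1 library was left out. Breakdown enzymes called numbered 2 with limma-voom and 0 to 1 when 1 library was left out, Mmp14 being lost. The cause of these differences was not tested.

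The sample titles number the replicates and state no pairing. Same-numbered libraries correlated at -0.27, -0.21 and -0.08 in their deviations from the group means. No library of ICI-myocarditis correlated best with its own number. These correlations cannot exclude pairing, since paired animals need not deviate alike over all genes. The replicate block was fitted on replicates 1 to 3 and so also leaves out control 4, and its estimates equal those without control 4. With it 9 collagen genes were called (11.6% of all genes), 5 of them higher, along with 6 maturation genes and 1 receptor. Without control 4 and with no block, 12 collagen genes were called, Col4a4 was gained and none was lost. The block itself lost Col1a1, Col1a2 and Col3a1, whose log2 fold changes were 1.68, 1.45 and 1.27 in both fits. In both, Col17a1 was at -0.12 and Col18a1 at -0.0015 on the log2 scale.

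Estimates that changed sign were all far from a call. Col11a2 was at 0.10 with limma-voom and -0.48 to 0.18 when 1 library was left out. Col17a1 was at -0.14 in edgeR, -0.12 in DESeq2 and -0.12 to 0.66 when 1 library was left out. Leaving out 1 library gave -0.40 to 0.11 for Col15a1, -0.0015 to 0.55 for Col18a1 and -0.52 to 0.0046 for Col4a2. The same gave -0.14 to 0.0099 for Col4a1 over Col4a2 and -0.51 to 0.13 for Col6a3 over Col6a1. The fibrillar and type IV shares kept their direction throughout. Scaling by library size alone raised the median of all genes by 0.16 on the log2 scale and turned the sign of no collagen gene. With 1 library left out, the exact test of the ratios is too small to pass its threshold.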
